A study of Mus musculus with 18 samples.

Results

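The keratins described here are the 48 genes, of 23951 in the deposited table, whose symbol is Krt followed by digits alone, and they were followed through fibroblasts and tumor cells sorted from mouse pancreas. The rule takes 26 type I and 22 type II keratins and leaves out letter-suffixed genes such as Krt6a, which reached 3.29 FPKM at most, and Krt6b, which reached 0.253 FPKM. FPKM is a count of fragments scaled to transcript length and to the mapped fragments of the library, so levels can be set side by side between genes.

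Keratins are the intermediate filament proteins of epithelial cells. A filament is built from pairs of 1 acidic type I and 1 basic type II keratin, and a keratin without a partner is degraded. Simple epithelia such as pancreatic acini and ducts use Krt8 with Krt18, ducts add Krt7 and Krt19, and stratified epithelia use other pairs such as Krt5 with Krt14. Fibroblasts build their filaments mainly from vimentin.

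Poly(A) RNA was measured in 18 libraries of 5 groups. Normal pancreatic fibroblasts (NPF, n = 3) came from K-Ras+/+ mice. Cancer-associated fibroblasts (WT_CAF, n = 5) and tumor cells (WT_tumor, n = 4) with intact Saa3, the gene of an acute-phase serum amyloid A protein, came from mice labelled K-Ras+/LSLG12Vgeo and Trp53lox/lox. The same alleles together with Saa3-/- gave KO_CAF (n = 3) and KO_tumor (n = 3). All 5 groups, the normal ones included, carried Elas-tTA/tetO-Cre and Rosa26+/EYFP, so that Cre depends on an elastase promoter, which is active in acinar cells. NPF differ from WT_CAF in the K-Ras and Trp53 alleles together with the tumor. The sources used here give no ages and no sort markers, nor do they say whether fibroblasts and tumor cells shared animals. Replicate numbers follow accession order and are only names.

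Saa3 lay between 0 and 1.85 FPKM in the 6 libraries labelled Saa3-/- and between 2.75 and 4278 FPKM in the other 12. In tumor cells the 10 epithelial markers summed to 1325 to 1500.0 FPKM for KO_tumor and 70.4 to 2116.5 FPKM for WT_tumor. In fibroblasts the sum stayed within 2.52 to 40.4 FPKM for KO_CAF, 9.20 to 58.6 FPKM for WT_CAF and 0.995 to 14.1 FPKM for NPF. A pair of libraries stood apart from their labels. WT_CAF replicate 1 held 9.80 FPKM of the fibroblast receptor Pdgfra against 81.0 to 121 in the other WT_CAF libraries, and WT_tumor replicate 4 held 2.60 FPKM of the epithelial adhesion gene Epcam against 129 to 586 in the other tumor cell libraries. Both had been named beforehand, with earlier results of these data known, as lying between epithelial and mesenchymal. Keratin calls that rest on either library are given with and without it. Sequencing depth is unknown, since the table holds no counts. The labels also carry an index sequence in 3 forms (none, 6 bases or 16 bases), which was kept in the fit as a technical term.

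The 250 bases before the start of Krt8, Krt18, Krt7 and Krt20 are shown because the first 2 of these genes moved together in the libraries and the other 2 departed from them. Krt8 and Krt18 are neighbours on chromosome 15, where Krt18 is the only type I gene among the type II genes. Krt7 lies in the same cluster beside Krt80, and Krt20 lies beside Krt23 in the type I cluster of chromosome 11. The sequences are from RefSeq, build GRCm38.p6, in the direction of transcription, and capitals mark the E-box CACCTG, searched on both strands (CACCTG or CAGGTG), a motif that the repressors of the Snail and Zeb families bind. The windows are chr15:102004343-102004592 on the minus strand for Krt8, chr15:102027966-102028215 on the plus strand for Krt18, chr15:101412153-101412402 on the plus strand for Krt7 and chr11:99438154-99438403 on the minus strand for Krt20.
Krt8: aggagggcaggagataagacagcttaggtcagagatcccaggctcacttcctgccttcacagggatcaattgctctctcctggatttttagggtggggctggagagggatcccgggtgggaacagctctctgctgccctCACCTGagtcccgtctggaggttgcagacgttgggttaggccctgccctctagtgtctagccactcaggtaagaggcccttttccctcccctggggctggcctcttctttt
Krt18: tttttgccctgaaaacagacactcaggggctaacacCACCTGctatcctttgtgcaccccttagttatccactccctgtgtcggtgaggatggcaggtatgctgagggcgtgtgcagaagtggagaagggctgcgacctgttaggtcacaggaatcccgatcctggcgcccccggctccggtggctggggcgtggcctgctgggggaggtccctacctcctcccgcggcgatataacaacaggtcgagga
Krt7: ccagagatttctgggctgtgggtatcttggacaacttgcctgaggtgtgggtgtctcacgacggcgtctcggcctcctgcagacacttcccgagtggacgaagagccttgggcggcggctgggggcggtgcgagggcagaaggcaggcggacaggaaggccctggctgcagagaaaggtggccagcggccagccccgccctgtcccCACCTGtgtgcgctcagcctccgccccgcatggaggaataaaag
Krt20: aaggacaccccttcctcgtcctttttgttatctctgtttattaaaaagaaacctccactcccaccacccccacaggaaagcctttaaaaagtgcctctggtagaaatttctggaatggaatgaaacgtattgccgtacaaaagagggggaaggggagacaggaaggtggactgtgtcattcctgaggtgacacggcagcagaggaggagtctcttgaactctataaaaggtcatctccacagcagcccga
The match began 111 bases before the start in Krt8, 214 before it in Krt18 and 44 before it in Krt7, and these letters are not in the Krt20 window. The motif stood in 5657 of 32851 promoters of this length (17.2%) and in 13 of the 34 keratins that have an entry. A match describes letters and is no measured binding site.

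Of the 48 keratins, 14 passed the filter of 1 FPKM in at least 3 libraries. They were all 7 keratins listed as simple epithelial (Krt7, Krt8, Krt18, Krt19, Krt20, Krt23 and Krt80) and 7 of the 17 listed as basal or stratified (Krt4, Krt10, Krt12, Krt14, Krt16, Krt17 and Krt79). None of the 22 hair and root sheath keratins passed. Krt4, Krt12, Krt14, Krt16, Krt17, Krt20 and Krt79 passed only because of tumor cell libraries, so counts over the 14 carry that choice within them. Among the 34 others, 10 were listed at 0 in every library, 17 stayed below 1 FPKM and 7 reached it somewhere. A listed 0 need not mean that a gene was silent, since this table also lists 0 for the abundant collagen genes Col1a1 and Col1a2 in KO_CAF replicate 2 and Col3a1 in WT_CAF replicates 2, 3 and 4.

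Tumor cells expressed between 11 and 16 keratins at 1 FPKM or more per library, and fibroblasts between 2 and 9. Keratins made up 0.596% to 1.68% of all FPKM in the 7 tumor cell libraries. In the 11 fibroblast libraries they made up 0.000993% to 0.166%, with WT_CAF replicate 1 at the top of that range, followed by WT_CAF replicate 5 at 0.0853% and KO_CAF replicate 1 at 0.0445%. Krt7, Krt8, Krt18 and Krt19 together accounted for 93.9% to 99.1% of the keratin FPKM in tumor cells and for 39.0% to 93.7% in fibroblasts. The keratin RNA of tumor cells was thus mostly that of 4 simple epithelial genes, and all other keratins shared what remained.

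**Figure D1:**
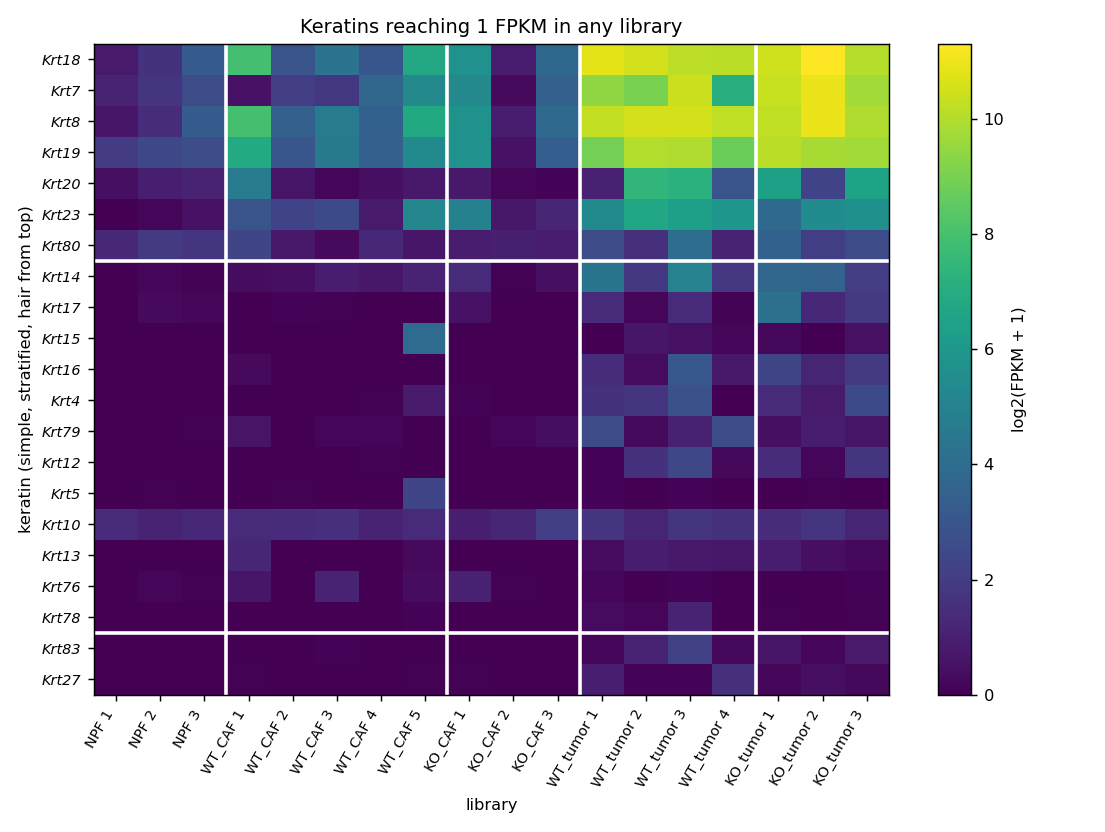
Heat map of the 21 keratins that reached 1 FPKM in any library (rows) in the 18 libraries (columns, by group), coloured by log2(FPKM + 1). Krt8, Krt18, Krt7 and Krt19 fill the tumor cell columns, and WT_CAF replicates 1 and 5 are the fibroblast columns with the most keratin.

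Krt8, the type II keratin found in all simple epithelia, was at 1217, 1521, 1544 and 1188 FPKM in WT_tumor replicates 1 to 4 and at 1192, 1987 and 996 FPKM in KO_tumor replicates 1 to 3. In WT_CAF it was at 252, 9.91, 25, 10.5 and 116 FPKM, in KO_CAF at 53.1, 0.892 and 13.6 FPKM, and in NPF at 0.600, 1.70 and 8.88 FPKM. Every tumor cell library lay above every fibroblast library, with WT_tumor replicate 4 as high as its group and WT_CAF replicate 1 the highest fibroblast library. The WT_tumor level of 1367 ± 191 FPKM (SD, n = 4) stood against a WT_CAF level of 82.6 ± 104 FPKM (SD, n = 5), whose SD exceeds its mean.

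Krt18, the type I partner of Krt8, followed it between cell types and among the fibroblasts, though the order within WT_tumor differed. It was at 1817, 1497, 1150 and 1109 FPKM in WT_tumor, at 1441, 2533 and 1068 FPKM in KO_tumor, at 245, 6.57, 18.5, 7.18 and 113 FPKM in WT_CAF, and in KO_CAF at 51.6, 0.794 and 13.3 FPKM, whereas NPF held 0.749, 2.18 and 8.66 FPKM. The same fibroblast libraries were high for both partners. Across the 18 libraries the FPKM ratio of Krt18 to Krt8 stayed between 0.663 and 1.49, while Krt8 itself ranged from 0.600 to 1987 FPKM. A pseudogene, Krt8-ps, is annotated in GENCODE, and the sources used here do not say how reads shared with it were treated.

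Krt19, a type I keratin of ducts, was at 485, 1040, 983 and 438 FPKM in WT_tumor and at 1132, 913 and 862 FPKM in KO_tumor. It was at 119, 7.04, 22.8, 10.1 and 41.6 FPKM in WT_CAF, and in KO_CAF at 51.1, 0.466 and 9.42 FPKM, whereas NPF held 3.04, 4.55 and 5.36 FPKM. Tumor and fibroblast libraries did not overlap. Unlike Krt8 and Krt18, Krt19 had its lowest tumor values in WT_tumor replicates 1 and 4.

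Krt7, a type II keratin of ducts and many glandular epithelia, was at 695, 517, 1347 and 134 FPKM in WT_tumor and at 1326, 2013 and 859 FPKM in KO_tumor. In WT_CAF it was at 0.472, 3.15, 2.54, 12.5 and 39.4 FPKM, in KO_CAF at 38.5, 0.219 and 10.2 FPKM, and in NPF at 1.11, 2.32 and 5.18 FPKM. Again no fibroblast library reached a tumor cell library. Relative to Krt8, however, Krt7 was lowest in the libraries that stood apart from their labels, each within its cell type. WT_CAF replicate 1 had the highest Krt8 and the lowest Krt7 of its group, with a Krt7 to Krt8 ratio of 0.00188 against 0.102 to 1.84 in the other 10 fibroblast libraries. WT_tumor replicate 4 had a ratio of 0.113 against 0.340 to 1.11 in the other 6 tumor cell libraries.

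**Figure D2:**
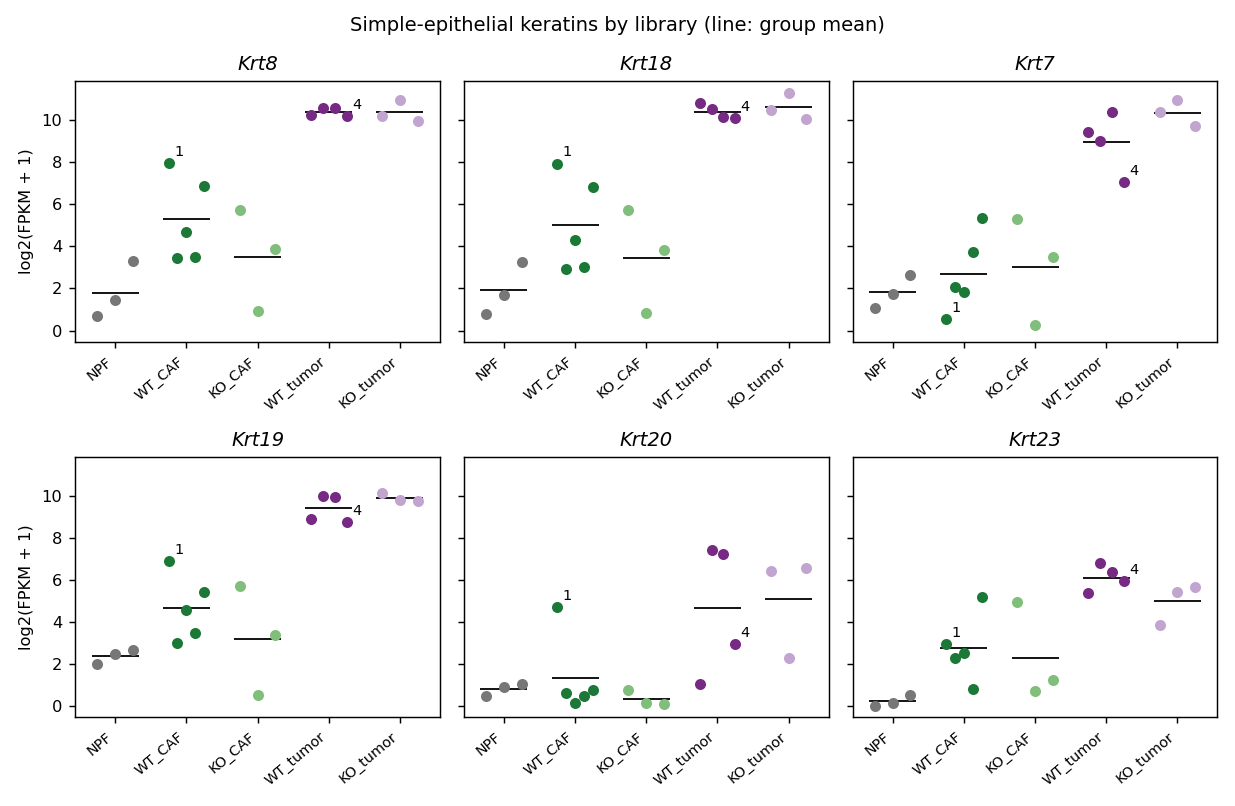
Levels as log2(FPKM + 1) of Krt8, Krt18, Krt7, Krt19, Krt20 and Krt23 in each library (points) with the mean of each group (lines), with WT_CAF replicate 1 and WT_tumor replicate 4 numbered. Krt8 and Krt18 keep WT_tumor replicate 4 among its group at 1188 and 1109 FPKM, whereas Krt7 places it lowest of the tumor cells at 134 FPKM.

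The pair of libraries that stood apart carried Krt8, Krt18 and Krt19 without a matching amount of Krt7 or Epcam. Low Epcam was itself the ground for setting WT_tumor replicate 4 apart, and both libraries had been named as intermediate beforehand. Their Epcam, Cdh1, Vim and Twist2 values therefore describe that choice and are no separate evidence for it. Their keratin values, and the ratios built on them, may share in that choice and are given as description only. Epcam was at 0.220 FPKM in WT_CAF replicate 1, where Krt8 was at 252 FPKM, and its ratio to Krt8 there was 0.000873. In WT_tumor replicate 4 that ratio was 0.00219. Cdh1, the E-cadherin of epithelial junctions, was at 10.1 FPKM in WT_CAF replicate 1 and at 46.5 FPKM in WT_tumor replicate 4, against 86.8 to 228 FPKM in the other tumor cell libraries. Vimentin (Vim) was at 1288 FPKM in the former and 2231 FPKM in the latter, the highest of the tumor cells, and the mesenchymal transcription factor gene Twist2 was at 24.0 and 13.3 FPKM. These are values of 1 library of each group, and whether they reflect a mixture of cells or cells of a mixed state was not tested. In all these bulk libraries, fewer epithelial cells and less keratin RNA per cell cannot be told apart.

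**Figure D3:**
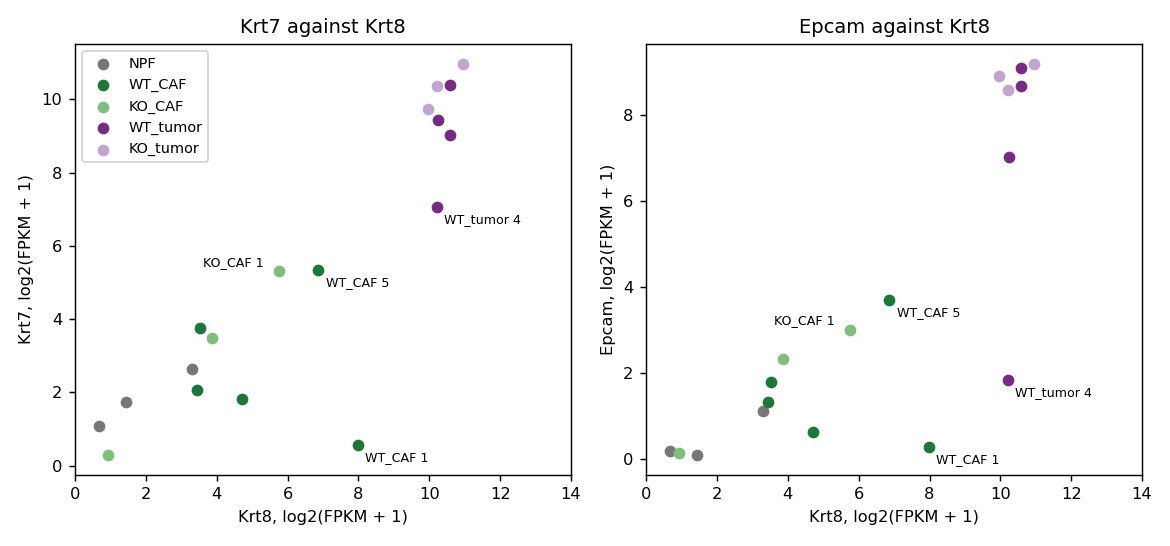
Krt7 (left) and Epcam (right) against Krt8, all as log2(FPKM + 1), 1 point for each of the 18 libraries coloured by group. WT_CAF replicate 1 (Krt8 at 252, Krt7 at 0.472 and Epcam at 0.220 FPKM) lies far below the trend of the other fibroblasts in both panels, and WT_tumor replicate 4 lies below the tumor cells, at 134 FPKM of Krt7 and 2.60 of Epcam.

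Krt20 and Krt23, neighbouring type I genes, varied in other ways. Krt20, a keratin of intestinal and gastric epithelium, was at 1.07, 171, 151 and 6.70 FPKM in WT_tumor, at 84.3, 3.86 and 93.3 FPKM in KO_tumor, at 25.3, 0.562, 0.103, 0.389 and 0.734 FPKM in WT_CAF, and at 0.730, 0.129 and 0.0732 FPKM in KO_CAF. NPF held 0.379, 0.910 and 1.09 FPKM. Tumor cells fell into a high set of 4 libraries and a low set of 3, and the low set is WT_tumor replicate 4 and the 2 tumor cell libraries with a 16-base index, WT_tumor replicate 1 and KO_tumor replicate 2. WT_CAF replicate 1, which had the least Krt7 of its group, held more Krt20 than any other fibroblast library.

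Krt23 was at 40.3, 110, 82.1 and 61.0 FPKM in WT_tumor, at 13.6, 42.8 and 49.7 FPKM in KO_tumor, at 6.66, 3.88, 4.87, 0.771 and 36.3 FPKM in WT_CAF, and at 30.2, 0.653 and 1.35 FPKM in KO_CAF. NPF held 0.0216, 0.111 and 0.472 FPKM. WT_tumor did not overlap WT_CAF, but WT_CAF replicate 5 and KO_CAF replicate 1 lay above KO_tumor replicate 1. Relative to Krt8 it was at 0.0114 to 0.0724 in tumor cells and at 0.0736 to 0.732 in the CAF libraries other than WT_CAF replicate 1. WT_CAF replicate 1, at 0.0265, and NPF, at 0.0360 to 0.0652, lay within the tumor cell range.

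Krt80, a type II gene beside Krt7, was at 5.12, 1.95, 15.3 and 1.16 FPKM in WT_tumor and at 10.3, 3.29 and 5.25 FPKM in KO_tumor. Fibroblasts held 4.07, 0.718, 0.214, 1.47 and 0.629 FPKM in WT_CAF, 0.812, 1.0 and 0.847 FPKM in KO_CAF and 1.45, 2.78 and 2.40 FPKM in NPF. The genotype-matched groups overlapped for intact Saa3 and did not for Saa3-/-.

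The basal and stratified keratins were present in tumor cells at far lower levels. Krt14, the type I keratin of basal layers, was at 19.9, 2.56, 31.2 and 2.50 FPKM in WT_tumor, at 12.1, 11.1 and 3.20 FPKM in KO_tumor, at 0.311, 0.385, 0.894, 0.665 and 1.13 FPKM in WT_CAF, and at 1.51, 0.0342 and 0.394 FPKM in KO_CAF. NPF held 0, 0.153 and 0.0525 FPKM. All tumor cell libraries lay above all fibroblast libraries. Its usual type II partner Krt5 stayed at or below 0.0931 FPKM in every tumor cell library, so that Krt14 was not accompanied by Krt5.

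Krt16 and Krt17, type I keratins of stressed and wounded epidermis, lie next to Krt14 and resemble it in sequence, so reads may be shared among the 3 genes. Krt16 was at 1.72, 0.263, 7.32 and 0.701 FPKM in WT_tumor, at 4.14, 1.25 and 2.74 FPKM in KO_tumor, at 0.233 FPKM in WT_CAF replicate 1, at 0.0237 FPKM in NPF replicate 1 and listed at 0 in the other 9 fibroblast libraries. Krt17 was at 1.51, 0.141, 1.57 and 0.0504 FPKM in WT_tumor and at 17.1, 1.38 and 2.75 FPKM in KO_tumor. In fibroblasts Krt17 was at 0.0186, 0.0830, 0.0602, 0 and 0 FPKM in WT_CAF, and in KO_CAF at 0.479, 0 and 0 FPKM, whereas NPF held 0.0261, 0.214 and 0.142 FPKM. WT_tumor overlapped the fibroblasts for Krt17, and KO_tumor replicate 1 was the highest library by a wide margin.

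Krt79, a type II keratin of hair follicle openings and glands, was at 5.19, 0.226, 1.03 and 4.96 FPKM in WT_tumor, at 0.386, 0.862 and 0.570 FPKM in KO_tumor, at 0.499, 0, 0.157, 0.154 and 0 FPKM in WT_CAF, and at 0, 0.140 and 0.333 FPKM in KO_CAF. NPF held 0.0182, 0 and 0.0626 FPKM. WT_tumor replicates 1 and 4 set its level in that group. Krt4, a type II keratin of mucosal stratified epithelia, ranged from 0 to 5.98 FPKM in tumor cells and from 0 to 0.780 FPKM in fibroblasts. Krt12, known as a type I keratin of the cornea, ranged from 0.0749 to 4.53 FPKM in tumor cells and did not exceed 0.0399 FPKM in fibroblasts. Krt10, the type I keratin of suprabasal epidermis, was nearly level, at 0.956 to 3.29 FPKM in fibroblasts and 1.22 to 2.27 FPKM in tumor cells.

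Of the 7 keratins that reached 1 FPKM without passing the filter, Krt15, a basal type I keratin, was at 14.5 FPKM in WT_CAF replicate 5 and at most at 0.542 FPKM elsewhere. The same library held the maximum of Krt5, at 4.21 FPKM. It also held 73.0 FPKM of the uroplakin gene Upk1b, 1.13 FPKM of the basal transcription factor gene Trp63 and 12.1 FPKM of Epcam, each the highest among the fibroblasts. Upk1b is also 1 of the 9 mesothelial markers used here, and their sum in this library, 216 FPKM, was the highest of the fibroblasts. The part of other cell types in its keratin values was not tested. The others peaked at 1.33 FPKM in WT_CAF replicate 1 (Krt13), 1.21 FPKM in WT_CAF replicate 3 (Krt76), 1.92 FPKM in WT_tumor replicate 4 (Krt27), and 1.16 FPKM (Krt78) and 3.55 FPKM (Krt83) in WT_tumor replicate 3.

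Type I and type II keratins were present in similar amounts. The summed FPKM of type I keratins over that of type II was 0.827 to 1.38 in tumor cells (median 1.12, n = 7) and 0.832 to 1.81 in fibroblasts (median 1.46, n = 11). The ranges overlapped, and they did so while the total keratin level differed by orders of magnitude.

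The first comparison asks how tumor cells differ from the fibroblasts of tumors with intact Saa3. In limma's fit over 13369 genes on log2(FPKM + 1), with Benjamini-Hochberg adjustment, 7 of the 14 tested keratins were higher in WT_tumor than in WT_CAF and 0 were lower, where 9.05% of all tested genes were called higher and 12.5% lower (21.5% in either direction). Krt18 was higher by 5.99 ± 1.28 on the log2 scale (SE, adjusted p = 0.0055, limma), Krt7 by 5.85 ± 1.06 (adjusted p = 0.0022), Krt8 by 5.54 ± 1.22 (adjusted p = 0.0063) and Krt19 by 4.86 ± 1.07 (adjusted p = 0.0063). Krt23 (3.10 ± 1.05, limma adjusted p = 0.0496), Krt14 (2.56 ± 0.71, adjusted p = 0.020) and Krt79 (1.70 ± 0.44, adjusted p = 0.015) were also called. The median over the 14 was 2.13, against 0.07 over all tested genes. Of the 14, 7 passed the filter only through tumor cell libraries, Krt14 and Krt79 among them. A higher level in tumor cells was thus partly built into this count and median. With the index form in the fit, these sizes rest on WT_CAF replicates 3 to 5, since replicates 1 and 2 have no index and share that form with no tumor cell library.

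Krt20, higher by 3.23 ± 1.31, was not called (limma adjusted p = 0.092), nor were Krt80 (1.58 ± 0.63, adjusted p = 0.086) and Krt16 (1.31 ± 0.50, adjusted p = 0.076). Krt4, Krt12, Krt17 and Krt10 differed by 1.18, 0.79, 0.58 and 0.34, with adjusted p from 0.134 to 0.474 in limma. Within the libraries with a 6-base index, Krt8 was at 25 FPKM in the single WT_CAF library and at 1188 to 1544 in 3 WT_tumor libraries. Within those with a 16-base index it was at 10.5 and 116 FPKM in WT_CAF and at 1217 FPKM in 1 WT_tumor library. Counted without a model, 8 keratins did not overlap between WT_tumor and WT_CAF (Krt7, Krt8, Krt12, Krt14, Krt16, Krt18, Krt19 and Krt23), where 5.66% of tested genes were higher in this way. Of these 8, Krt12, Krt14 and Krt16 had passed the filter only through tumor cell libraries. The calls of Krt7, Krt8, Krt18 and Krt19 held without WT_tumor replicate 4. WT_CAF replicate 1 bears on the size only without the index term, where Krt8 was higher by 5.10 with it, and by 5.84 without both libraries that stood apart (limma adjusted p = 0.0019 and 5.4e-04). Without WT_tumor replicate 4 Krt23 was not called (3.17, limma adjusted p = 0.064), and Krt79 fell under the filter and was not tested. The Krt14 call was lost without WT_CAF replicate 3, WT_CAF replicate 4 or WT_tumor replicate 1 (limma adjusted p = 0.067, 0.059 and 0.11).

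The second comparison repeats this with Saa3-/- on both sides. KO_tumor exceeded KO_CAF for 9 of the 14 keratins and 0 were lower in limma's fit, where 13.0% of tested genes were called higher and 15.4% lower (28.4% in either direction). Krt7 was higher by 7.34 ± 1.08 (adjusted p = 5.4e-04, limma), Krt18 by 7.16 ± 1.30 (adjusted p = 0.0017), Krt8 by 6.86 ± 1.24 (adjusted p = 0.0016) and Krt19 by 6.70 ± 1.09 (adjusted p = 9.1e-04). Krt20 was higher by 4.73 ± 1.33 (limma adjusted p = 0.017). Krt14, Krt17, Krt80 and Krt16 were higher by 2.51 ± 0.72, 2.26 ± 0.56, 1.83 ± 0.64 and 1.81 ± 0.51, with limma adjusted p from 0.0098 to 0.044. The median over the 14 was 2.38, against 0.05 over all tested genes. Among the called keratins, Krt14, Krt16, Krt17 and Krt20 had passed the filter only through tumor cell libraries, which favours this count and median.

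Krt23 (2.69 ± 1.07, limma adjusted p = 0.074), Krt4 (1.54, adjusted p = 0.051), Krt12 (1.10, adjusted p = 0.089) and Krt79 (0.47 ± 0.45, adjusted p = 0.450) were not called. By non-overlap alone, 12 keratins lay higher in every KO_tumor than in every KO_CAF library, all but Krt10 and Krt23, where 20.6% of tested genes did. These 12 include all 7 keratins that passed the filter only through tumor cell libraries, so the count is partly set by the filter. KO_CAF replicate 2 was the lowest of its group for Krt8, Krt18, Krt7 and Krt19, and without it 5 keratins were called. Across the alternatives Krt80 was the call lost most often, followed by Krt14, Krt20 and Krt16. Over all 18 libraries, 7 keratins (Krt7, Krt8, Krt12, Krt14, Krt16, Krt18 and Krt19) were higher in each of the 7 tumor cell libraries than in each of the 11 fibroblast libraries, against 3.07% of tested genes. Krt12, Krt14 and Krt16 among them carry the same limit, whereas Krt7, Krt8, Krt18 and Krt19 passed the filter in fibroblasts alone.

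**Figure D4:**
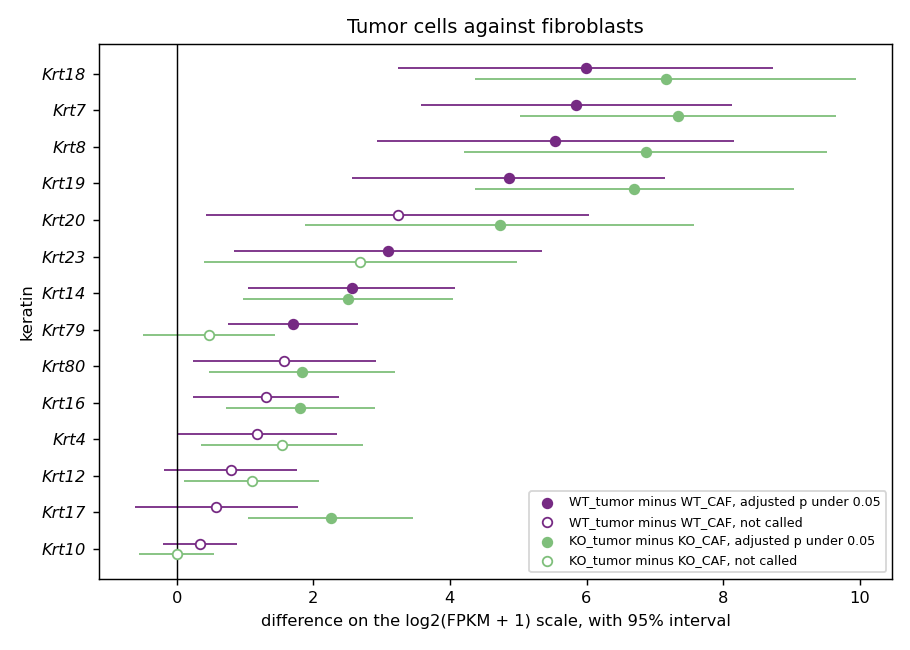
Difference in log2(FPKM + 1) between tumor cells and CAFs for the 14 tested keratins, with intact Saa3 and with Saa3-/-, as limma estimates with 95% intervals (bars), filled where the adjusted p was under 0.05. Krt7, Krt8, Krt18 and Krt19 lead in both genotypes, at 4.86 to 5.99 with intact Saa3 and 6.70 to 7.34 with Saa3-/-.

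The design also asks whether loss of Saa3 changes the keratins within a cell type. Between KO_tumor and WT_tumor, 0 of the 14 keratins were called by limma, where 0.00% of tested genes were, and 2 had an unadjusted p under 0.05. Krt17 was at a higher level in KO_tumor by 1.73 ± 0.53 (unadjusted p = 0.0056, adjusted p = 1, limma) and Krt79 differed by -1.0 ± 0.42 (unadjusted p = 0.033, adjusted p = 1, limma). The difference was -0.06 for Krt8 (95% interval -2.55 to 2.43), 0.15 for Krt18 (-2.47 to 2.77), 0.51 for Krt19 (-1.67 to 2.69) and 1.28 for Krt7 (-0.89 to 3.45). These intervals leave room for changes of several fold in either direction. No keratin separated the libraries of these groups without overlap, where 1.36% of tested genes were higher in this way.

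Between KO_CAF and WT_CAF, limma called 0 of the 14, where 0.00748% of tested genes were called, and 0 had an unadjusted p under 0.05. The difference was -1.38 for Krt8 (95% interval -4.12 to 1.36), -1.02 for Krt18 (-3.90 to 1.85), -1.33 for Krt19 (-3.73 to 1.07) and -0.21 for Krt7 (-2.59 to 2.17). No keratin was free of overlap in the direction of KO_CAF, where 0.464% of tested genes were. The fibroblast groups spread so widely, from 0.892 to 53.1 FPKM of Krt8 within KO_CAF, that even a large change could go uncalled. The same fit called 0 genes lower in KO_CAF. Saa3 itself, at 0.434 to 1.85 FPKM in KO_CAF and 7.24 to 4278 FPKM in WT_CAF, was therefore not called. The difference between the tumor-to-CAF contrasts of the 2 genotypes, tested as an interaction, was called for 0 of the 14 (0.00% of tested genes) and 0 had an unadjusted p under 0.05 in limma. It was 1.32 ± 1.74 for Krt8, 1.17 ± 1.83 for Krt18, 1.84 ± 1.52 for Krt19, 1.49 ± 1.51 for Krt7 and 1.67 ± 0.79 for Krt17 (SE).

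The last comparison sets tumor-associated against normal fibroblasts. It shares the WT_CAF libraries with 2 of the comparisons above. By limma, 0 of the 14 keratins were called between WT_CAF and NPF, where 0.950% of tested genes were called (0.277% higher and 0.673% lower), and 2 had an unadjusted p under 0.05. Krt8 differed by 3.91 ± 1.39 (adjusted p = 0.19, limma), Krt18 by 3.51 ± 1.46 (adjusted p = 0.25), Krt19 by 2.57 ± 1.21 (adjusted p = 0.30), Krt23 by 2.36 ± 1.19 (adjusted p = 0.33) and Krt7 by -0.51 ± 1.21 (adjusted p = 0.88).

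Libraries without an index alone give the size of this difference, so it is set by WT_CAF replicates 1 and 2. Without replicate 1 the Krt8 difference was 1.64 (limma adjusted p = 0.70). Without replicate 2 it was 6.17 (adjusted p = 0.022), and Krt18 and Krt19 were called as well. In FPKM, Krt8, Krt14, Krt19 and Krt23 were higher in all 5 WT_CAF than in all 3 NPF libraries, 4 of 14 against 5.13% of tested genes. The summed epithelial markers, at 9.20 to 58.6 FPKM in WT_CAF and 0.995 to 14.1 FPKM in NPF, overlapped, with each of the 10 above 0 in both groups. In the fit the median of these 10 markers was 0.01, with 0 of 10 called by limma and 0 at an unadjusted p under 0.05. For 7 ductal markers the median was 1.45, with 0 called by limma and 2 at an unadjusted p under 0.05. Their sums were 155 to 5001 FPKM in WT_CAF and 110 to 387 FPKM in NPF. Spp1 alone held 4960 of the 5001 FPKM in WT_CAF replicate 1. As a mean of log2(FPKM + 1), the ductal list was also highest among fibroblasts in that library (3.68). The sums of 9 mesothelial markers, from another keratin-bearing cell type of the abdominal cavity, were 62.9 to 216 FPKM in WT_CAF, 86.0 to 126 in KO_CAF and 40.7 to 181 FPKM in NPF. No mesothelial marker was at 0 throughout any of these groups. Single genes weigh heavily in these sums. Msln, which was also called higher in tumor cells by limma, held 177 of the 182 FPKM in WT_CAF replicate 1. Nkain4 held 132 of the 181 FPKM in NPF replicate 1. As a mean of log2(FPKM + 1), the mesothelial list was lowest among fibroblasts in WT_CAF replicate 1 (1.34) and highest in WT_CAF replicate 5 (3.99). Acini also use Krt8 and Krt18, and the sums of 10 acinar markers ran the other way, at 1197, 7047 and 47999 FPKM in NPF replicates 1 to 3 and 28.3 to 750 FPKM in WT_CAF, with a median of -6.64 over the 9 tested, of which limma called 0 and 8 had an unadjusted p under 0.05. Within NPF the acinar sum and Krt8 had the same order. In tumor cells the acinar sum ran from 8.98 FPKM in KO_tumor replicate 1 and 14.5 in WT_tumor replicate 4 to 24916 FPKM in KO_tumor replicate 3, while Krt8 stayed within 996 to 1987 FPKM. The list had 1 marker at 0 throughout each tumor and CAF group, and the part of these cell types in the keratin values was not tested.

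The genes that anchor and accompany keratin filaments were compared in the same fit. Of 22 desmosome and keratin linker genes, 16 were tested, and 10 were higher in WT_tumor than in WT_CAF and 12 higher in KO_tumor than in KO_CAF, with 0 lower in either. Over all tested genes, 9.05% were higher and 12.5% lower with intact Saa3, and 13.0% and 15.4% with Saa3-/-, which also stand beside the counts of the lists that follow. The medians of these linkers were 2.25 and 2.81, against 0.07 and 0.05 over all tested genes. Perp, a desmosomal membrane protein, was higher by 4.07 ± 0.63 with intact Saa3 and 4.45 ± 0.64 with Saa3-/-, and Itgb4, the integrin that ties keratins to the basement membrane, by 3.69 ± 0.54 and 4.68 ± 0.55, all with limma adjusted p under 0.05. Of 15 other intermediate filament genes, 8 were tested. Desmin (Des), the filament protein of muscle and stellate cells, was lower in tumor cells by -5.57 ± 1.13 and -4.33 ± 1.15. Nestin (Nes, 2.56 ± 0.78) and lamin B1 (Lmnb1, 1.45 ± 0.33) were higher in KO_tumor than in KO_CAF by the same test.

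Vim differed by -0.20 ± 0.73 with intact Saa3 (limma adjusted p = 0.86) and -1.32 ± 0.74 with Saa3-/- (adjusted p = 0.20), so that the main fibroblast filament was not called lower in tumor cells while their keratins were called higher. Tumor cell libraries held 180 to 2231 FPKM of Vim, beside 996 to 1987 FPKM of Krt8. The difference with intact Saa3 includes WT_tumor replicate 4, at 2231 FPKM of Vim against 627, 773 and 180 in replicates 1 to 3. The WT_CAF side rests on replicates 3 to 5, at 1478, 471 and 342 FPKM. No Vim estimate without WT_tumor replicate 4 is given here.

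Of 16 regulators of epithelial state, 11 were tested, with 7 higher and 0 lower with intact Saa3 (9.05% of all tested genes higher), and 9 higher and 1 lower with Saa3-/- (13.0% of all higher). The ETS factor genes Elf3 (4.27 ± 1.02 and 5.54 ± 1.04) and Ehf (3.25 ± 0.60 and 4.07 ± 0.61) led by size, and Klf4 was the one lower, by -2.58 ± 0.92 with Saa3-/- (limma adjusted p = 0.0499). All 7 mesenchymal regulators were tested. With intact Saa3, 3 were lower (12.5% of all tested genes) and 0 higher, and with Saa3-/- 5 were lower (15.4% of all) and 0 higher. Prrx1 was lower by -3.85 ± 0.48 and -4.47 ± 0.48, and Snai1, which encodes a repressor of epithelial genes, by -3.69 ± 0.67 and -3.54 ± 0.68. Among the 10 epithelial markers 7 and 10 were higher, with Epcam at 5.0 ± 1.39 and 7.08 ± 1.42 and Cdh1 at 5.45 ± 0.72 and 6.39 ± 0.74, in that order of genotypes. The Epcam difference with intact Saa3 includes WT_tumor replicate 4, at 2.60 FPKM, and no estimate without that library is given here.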

How the data were processed

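The authors deposited 1 table of FPKM values per gene and library. Per the submitters' processing notes, alignment and quantification tools included Cufflinks 2.2.1 with Cuffnorm, TopHat2 2.0.10 and Bowtie 1.0.0, beside SAMtools 0.1.19 and FastQC, and the builds named were mm9, GRCh37 and hg19, of which mm9 is a mouse genome. The sources used here do not give the settings, the strandedness or the annotation. Libraries used an Illumina TruSeq kit on poly(A) RNA, per the labels' protocols.

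Here log2(FPKM + 1) was tested with limma 3.58.1 in R 4.3.3 over the 13369 of 23951 genes at 1 FPKM or more in at least 3 libraries. All 18 libraries entered 1 fit with group and index form as terms, which left 11 residual degrees of freedom, and calls are Benjamini-Hochberg adjusted p under 0.05. A difference on this scale understates the change of low genes. The series design states biological replicates, without saying which animals they came from.

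The members and gene lists were chosen with earlier results of these data known. Krt7, Krt8, Krt18, Krt19 and every called keratin are given in each library, other tested keratins by range, and other list genes by the 2 largest called differences in each direction plus Epcam, Cdh1 and Vim. Upk1b, Trp63, Pdgfra and Twist2, Krt6a and Krt6b, and the low Krt5 of tumor cells were named after their values were seen. Of the 48 keratins, 47 matched a RefSeq symbol. Alternatives were a pseudocount of 0.1, no filter, no index form, only the groups compared, FPKM rescaled to 1000000 per library, sample quality weights, and leaving out libraries.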

Additional observations from a re-analysis of the deposited data

Results flagged for a closer look

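For each tested keratin, groups of 4 or more libraries were examined for 1 value far from the rest on the log2(FPKM + 1) scale. In 4 of these 28 groups 1 library stood apart. About 1 in 20 would do so by chance if values were normally spread. That rate does not hold for groups with most values at or near 0, so the count is not set against it. Krt20 was at 25.3 FPKM in WT_CAF replicate 1 against 0.103 to 0.734 FPKM in the other 4 WT_CAF libraries. Krt16 was at 0.233 FPKM in the same library and listed at 0 in the others, a pattern that the rule flags whatever the size of the value. Krt4 was at 0.780 FPKM in WT_CAF replicate 5 against 0 to 0.0513 FPKM in the others. Krt10 was at 1.25 FPKM in WT_tumor replicate 2 against 2.10 to 2.27 FPKM in the other 3.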

How the results depend on the processing

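No paired analysis was possible because the labels carry no replicate numbers shared between groups. Krt7, Krt8, Krt18 and Krt19 stayed called higher in tumor cells than in CAFs in both genotypes under every alternative run, from 4.43 to 6.84 with intact Saa3 and from 5.25 to 8.77 with Saa3-/-. The 7 keratins called higher in WT_tumor became 4 when only the groups compared were fitted, where the share of all genes called higher fell from 9.05% to 2.13%. They became 11 (12.4% of all genes) without WT_CAF replicate 1, WT_tumor replicate 4 and the index term, an alternative chosen after seeing the data, and 4 to 8 when leaving out single libraries, the 4 without WT_tumor replicate 1 (5.60% of all genes). The 9 higher in KO_tumor became 5 to 9 when leaving out single libraries, the 5 without KO_CAF replicate 2 (6.70% of all genes, against 13.0%) or KO_tumor replicate 1 (8.80%). The 0 higher in WT_CAF than in NPF became 0 to 3, the 3 without WT_CAF replicate 2, where the share of all genes called higher rose from 0.277% to 4.49% and lower from 0.673% to 5.49%. Over single keratins, 473 recomputed values kept direction and call, 32 lost the call, 3 gained it and 12 changed sign, none of these 12 called.

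Leaving out single libraries, Krt8 in KO_tumor against WT_tumor ranged from -0.29 to 0.094. Krt7 in KO_CAF against WT_CAF became 0.32 without the index term and ranged from -1.46 to 0.88 when leaving out single libraries, and Krt18 there from -2.18 to 0.10. Krt7 in WT_CAF against NPF became 0.89 without the index term, 0.24 without both libraries that stood apart, and 1.43 without both and without the index term. It ranged from -1.25 to 0.24 when leaving out single libraries. Rescaling moved the median of all genes by 0.16 in WT_tumor against WT_CAF and by 0.20 in WT_CAF against NPF. The cause of these changes was not tested. With no counts, depth and its limit on low keratins are unknown.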
